A study of Mus musculus with 17 samples.

Results

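The receptor complex for leukemia inhibitory factor (LIF), the kinase and transcription factor below it, and the genes that this pathway switches on are described here through 10 genes: Lifr, Il6st, Osmr, Jak1, Stat3, Socs3, Cish, Bcl3, Pim1 and Osm. They were chosen by name, and transcripts were summed per gene symbol, which gave 10 of 53588 symbols. Of the 10, 9 passed the filter on low counts, together with 19796 symbols in all. Osmr did not pass, with 0 to 7 counts per library.

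Polyadenylated RNA was sequenced from 5 mouse embryonic stem (ES) cell lines in 17 libraries. All lines derive from MC1 ES cells of the 129S6/SvEvTac strain and carry, at the Rosa26 locus, a His6-FLAG-tagged transcription factor whose expression doxycycline (Dox) represses. Each line is named after its factor, giving iFoxA1, iFoxC1, iFoxG1, iFoxL2 and iFoxP3. The 24 h group had 11 libraries, 3 of iFoxA1 and 2 of each other line, taken 24 h after Dox was washed out (washes 3 h apart) into a differentiation medium with 10% serum, for which the labels name no LIF. The 0 h group had 6 libraries, 2 of iFoxA1 and 1 of each other line, from ES medium with 15% serum, 1000 U/ml LIF and 0.2 µg/ml Dox. Loss of LIF, loss of Dox, the transgene and the change of serum coincide between 0 h and 24 h and cannot be told apart, since no line without a transgene was analysed here.

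LIF binds Lifr on the cell surface, which then pairs with Il6st (gp130), the signal-transducing receptor shared by the interleukin-6 family. Jak1, a tyrosine kinase bound to the receptors, phosphorylates Stat3, which enters the nucleus and turns on target genes. In mouse ES cells kept in serum and LIF this pathway holds back differentiation. Socs3 is a Stat3 target whose protein binds gp130 and JAK and shuts the signal down, so its RNA is a common readout of the pathway.

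STAT dimers bind palindromes with the core TTCNNNGAA. In windows from 250 bases before to 50 bases after RefSeq gene starts (GRCm38.p6), this core was in 8.3% of 32851 windows, and the stricter TTCCNGGAA was in 1.15%. Both motifs read the same on either strand, and every TTCCNGGAA is also a TTCNNNGAA. The table held 9 members in 11 windows, and the core was in the windows of Socs3 and Cish. The stretches below carry these matches, with the core in capitals. The Socs3 stretch (chr11:117969452-117969616, minus strand) lies upstream of the RefSeq start, and its TTCTTAGAA begins at position -154 from that start. The Cish stretch (chr9:107296655-107296683, plus strand) holds TTCCTGGAA from the RefSeq start itself (position 0) and TTCTTGGAA from position 11. A match is a description of these letters and not a measured binding site.
Socs3: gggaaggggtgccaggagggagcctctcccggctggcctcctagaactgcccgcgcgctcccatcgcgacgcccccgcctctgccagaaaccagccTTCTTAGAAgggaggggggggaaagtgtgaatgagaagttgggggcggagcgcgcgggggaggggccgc
Cish: agttTTCCTGGAAagTTCTTGGAAatctg

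Library totals ran from 17.7 to 37.2 M estimated counts. The 5 libraries over 30 M are called the deeper libraries. They are iFoxA1 replicate 3 and replicate 2 of each other line, all at 24 h, with 31756 to 57882 TPM (transcript abundance scaled to length and library total) of Mir6236 against 742 to 2544 TPM in the 12 others. All 8 ES cell markers had counts in every library, and their sum was 2370 to 5970 CPM (counts scaled to the library total) at 24 h and 4810 to 6070 CPM at 0 h. Among the markers of other cells, those of trophoblast summed to 97.3 to 232 CPM at 24 h and 71.0 to 96.9 CPM at 0 h, and those of blood cells to 17.5 to 53.1 CPM at 24 h and 14.3 to 18.0 CPM at 0 h. Fibroblast markers summed to 3.99 to 34.7 CPM at 24 h and 4.22 to 28.3 CPM at 0 h, and primitive endoderm markers to 50.4 to 590 CPM at 24 h and 53.0 to 524 CPM at 0 h. The primitive endoderm sum split by line, with 515 to 590 CPM in iFoxA1 over both times and 50.4 to 106 CPM in the other lines. The part of all these markers in the changes and line differences below was not tested. Of the 8 blood cell markers, Lyz2, Csf1r, Adgre1, Ptprc and Tyrobp were each at 0 counts in at least 1 library and did not pass the filter, while Cd14, Itgam and Cd68 had counts in every library. Cd68, a lysosomal protein gene, made up most of the sum, at 14.3 to 47.9 CPM at 24 h and 11.5 to 15.5 CPM at 0 h, and was called higher (adjusted p = 0.0185 by edgeR).

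Averaged over the 5 lines with equal weight, 4 of the 9 tested members fell at 24 h (Stat3, Socs3, Bcl3 and Osm) and 1 rose (Jak1). The test was edgeR's quasi-likelihood F test, with p-values adjusted by the Benjamini-Hochberg method and a threshold of 0.05. It called 37.8% of all tested genes in this comparison, 21.7% higher and 16.1% lower. The median log2 change of the 9 was -0.51, against 0.04 over all genes tested. For Stat3, Socs3, Bcl3 and Osm every 24 h library lay below every 0 h library, a separation found in that direction for 3.90% of the genes tested. None of the 9 had every 24 h library above every 0 h library, as 4.80% of the genes tested did. Lifr, Il6st, Cish and Pim1 did not pass the threshold. In bulk RNA, fewer cells that express a gene and less RNA per cell cannot be told apart.

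**Figure D1:**
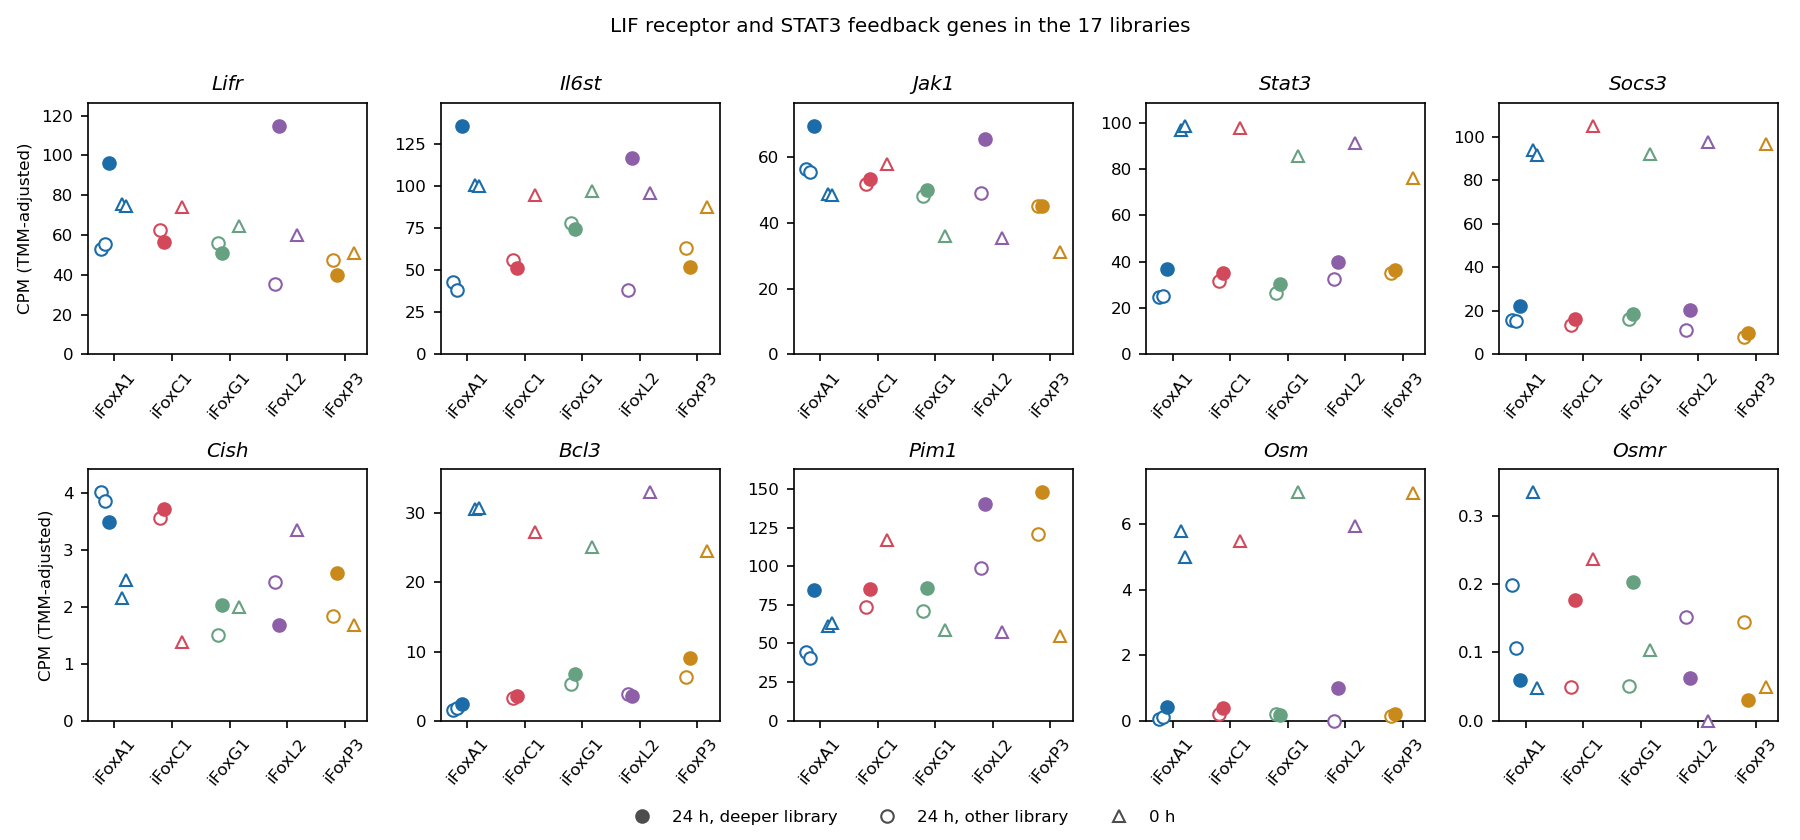
Level of each of the 10 genes in CPM (y axis, linear, from 0) in the 5 lines (x axis). Each point is 1 library, with circles for 24 h drawn left of triangles for 0 h and filled circles for the deeper libraries. Stat3, Socs3, Bcl3 and Osm separate the times in every line, while Il6st and Lifr at 24 h reach their highest values in 1 iFoxA1 and 1 iFoxL2 library.

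Per length, in TPM, the order of the members differed between the times. At 24 h the median was highest for Pim1 (41.9 TPM), then Il6st (16.3), Jak1 (13.5), Lifr (11.2), Stat3 (9.34), Socs3 (7.89) and Bcl3 (2.49), with Cish at 0.955, Osm at 0.0846 and Osmr at 0.0374 TPM. At 0 h the median was highest for Socs3 (48.3 TPM), then Pim1 (31.8), Stat3 (27.4), Bcl3 (22.2), Il6st (21.1), Lifr (13.0) and Jak1 (11.2), with Osm at 2.94, Cish at 0.939 and Osmr at 0.0169 TPM. Socs3 thus headed the list at 0 h and stood sixth of the 10 at 24 h. With transcripts of a complete coding sequence only, which leaves out a short Il6st fragment described below, the 24 h medians were 13.0 TPM for Jak1 and 11.9 TPM for Il6st, so their order turned. The ranges of neighbours overlapped. At 24 h Il6st spanned 9.16 to 34.4 TPM and Jak1 8.84 to 16.7 TPM, and at 0 h Stat3 spanned 20.6 to 36.3 TPM and Bcl3 13.6 to 27.3 TPM.

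Lifr (ENSMUSG00000054263.12, chr15:7090614-7197489, plus strand, mm10) encodes the LIF-binding receptor chain. It had 35.3 to 115 CPM at 24 h (median 55.3, n = 11) and 51.2 to 75.5 CPM at 0 h (median 69.4, n = 6). The groups overlapped, with 4 of the 11 libraries at 24 h below every 0 h library and 2 above. The average log2 change was -0.13 ± 0.24 (SE, adjusted p = 0.712 by edgeR).

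Il6st (ENSMUSG00000021756.12, chr13:112464070-112510086, plus strand) encodes gp130. It had 38.0 to 136 CPM at 24 h (median 55.9) and 87.5 to 101 CPM at 0 h (median 96.5). At 24 h 9 of 11 libraries lay below every 0 h library and the other 2 above every one. The average log2 change was -0.51 ± 0.32 (adjusted p = 0.231 by edgeR). With the library set as a term in the fit it was -0.86 ± 0.30 and passed (adjusted p = 0.0458). Osmr (ENSMUSG00000022146.12, chr15:6813577-6874969, minus strand), the receptor chain that pairs with gp130 to bind oncostatin M, was at 0.0305 to 0.203 CPM at 24 h and 0 to 0.335 CPM at 0 h. With at most 7 counts in a library, a change was not detectable at this depth.

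The 2 libraries with the highest Lifr and Il6st in CPM were iFoxA1 replicate 3 and iFoxL2 replicate 2, both at 24 h and both among the deeper ones. Lifr was at 96.0 and 115 CPM in them, against 35.3 to 62.4 CPM in the 9 other libraries at 24 h. Il6st was at 136 and 117 CPM, against 38.0 to 77.9 CPM in those 9. In CPM both genes were therefore higher in these 2 libraries than in any library at 0 h. In TPM over all transcripts Il6st was at 34.4 and 27.4 TPM, against 18.1 to 22.6 TPM at 0 h. Lifr was at 15.5 and 17.6 TPM, against 9.86 to 16.4 TPM at 0 h. In estimated counts the short fragment Il6st-205, described below, had 39.9 and 27.6, beside 2672.2 and 2494 of Il6st-201. A further reading changed both the unit and the transcripts, with TPM of complete coding sequences only. By it, only Lifr in iFoxL2 replicate 2 was above every 0 h library. Lifr was then at 11.7 and 13.9 TPM, against 6.4 to 12.7 TPM at 0 h. Il6st was then at 20.5 and 17.6 TPM, against 15.1 to 21.3 TPM at 0 h. The other receptor-proximal gene, Jak1, was also highest in CPM in these 2 libraries, at 69.5 and 65.6 CPM against 45.0 to 56.4 CPM in the 9 others. In TPM it was not, at 13.5 TPM in both, inside the 8.84 to 16.7 TPM of the 9 others. Jak1 TPM averaged 11.6 in the deeper libraries and 15.1 in the others at 24 h. Among the deeper libraries alone these 2 were highest, with 8.84 to 11.2 TPM in the rest.

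Of the response genes, Socs3, Stat3, Bcl3 and Osm in the same 2 libraries lay below every 0 h library. Socs3 was at 22.1 and 20.2 CPM in them, against 8.03 to 18.7 CPM in the 9 other libraries at 24 h and at least 91.6 CPM at 0 h. Stat3 was at 37.0 and 39.8 CPM, against 24.8 to 36.3 CPM in the 9 others. Bcl3 was at 2.37 and 3.57 CPM, inside the 1.54 to 9.00 CPM of the 9 others, and Osm was at 0.414 and 1.00 CPM, against 0 to 0.383 CPM. In CPM Socs3, Stat3 and Osm were thus higher in both than in any other library at 24 h. In TPM this held for none of them. Socs3 was at 8.43 and 7.69 TPM in the 2 libraries, against 3.82 to 10.4 TPM in the 9 others. Stat3 was at 10.8 and 9.34 TPM, against 6.79 to 13.2 TPM, and Osm at 0.16 and 0.371 TPM, against 0 to 0.177 TPM. Among the deeper libraries alone, Stat3 and Osm were highest in these 2. The rest had 6.79 to 8.14 TPM of Stat3 and 0.0733 to 0.159 TPM of Osm. Socs3 was not highest in them, with 3.82 to 8.47 TPM in the rest. Pim1, at 84.6 and 140 CPM, and Cish, at 3.49 and 1.69 CPM, were inside the range of the 9 others (40.8 to 148 CPM for Pim1 and 1.51 to 4.02 CPM for Cish) and neither lay below all 0 h libraries.

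Other values moved with these 2 libraries. Foxa1 RNA was at 21.8 TPM in iFoxA1 replicate 3 and at 131 and 137 TPM in replicates 1 and 2. Foxl2 RNA was at 2.85 TPM in iFoxL2 replicate 2 and at 78.1 TPM in replicate 1. The ES cell markers summed to 5970 and 5910 CPM in the 2 libraries, against 2370 to 3980 CPM in the 9 others. The blood cell markers summed to 42.7 and 53.1 CPM, against 17.5 to 36.0 CPM, of which Cd68 made up 39.0 and 47.9 CPM. The part of these values in the Lifr and Il6st levels was not tested.

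Without these 2 libraries all 9 tested members were called in the average change, 6 lower and 3 higher, where 52.9% of all genes were called. Lifr then had a log2 change of -0.41 ± 0.05 (adjusted p = 0.000363) and Il6st one of -0.88 ± 0.05 (adjusted p = 1.26e-05), both by edgeR. In the 12 libraries outside the deeper set, where 63.2% of all genes were called, 8 of 9 members were called. Lifr was at -0.36 ± 0.03 and Il6st at -0.84 ± 0.03 on the log2 scale there. The spread in that fit came from the 2 pairs of iFoxA1 libraries only, because every other group held 1 library.

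**Figure D2:**
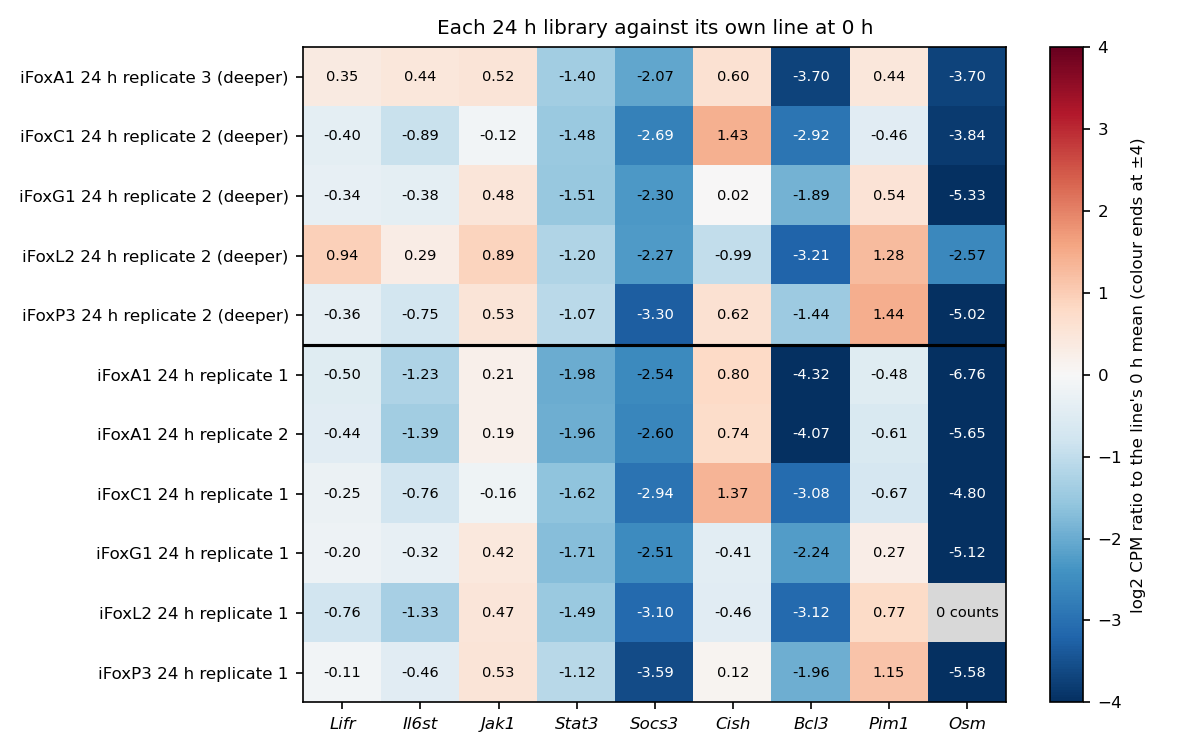
Colour and number give the log2 ratio of CPM in each 24 h library (rows) to the mean of the same line at 0 h, for 9 genes (columns). The 5 deeper libraries stand above the line, and iFoxL2 replicate 1 had 0 counts of Osm. Lifr and Il6st are above 0 only in iFoxA1 replicate 3 (0.35 and 0.44) and iFoxL2 replicate 2 (0.94 and 0.29), where Socs3 reads -2.07 and -2.27.

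Jak1 (ENSMUSG00000028530.14, chr4:101152367-101265282, minus strand) encodes the kinase that gp130 depends on. It had 45.0 to 69.5 CPM at 24 h (median 51.7) and 31.2 to 57.9 CPM at 0 h (median 42.2), and the groups overlapped. Its average log2 change was 0.37 ± 0.08 (adjusted p = 0.0073 by edgeR). On TPM with limma the change was 0.34 and missed the threshold (adjusted p = 0.0952, pseudocount 0.5).

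Stat3 (ENSMUSG00000004040.16, chr11:100885098-100939540, minus strand) encodes the transcription factor of the pathway and is itself known as a Stat3 target. It had 24.8 to 39.8 CPM at 24 h (median 32.6) and 76.4 to 98.8 CPM at 0 h (median 94.2). The groups did not overlap, and the average log2 change was -1.47 ± 0.10 (adjusted p = 1.06e-05 by edgeR). The fall was called within each of the 5 lines, between -1.10 ± 0.23 in iFoxP3 and -1.75 ± 0.18 in iFoxA1. Stat3 lost its call in iFoxL2 and iFoxP3 with transcript length as an offset and in iFoxP3 with no filter. With limma on TPM it lost it in iFoxG1, iFoxL2 and iFoxP3, and also in iFoxC1 with a pseudocount of 0.1.

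Socs3 (ENSMUSG00000053113.3, chr11:117966079-117970047, minus strand) has its printed stretch upstream of the RefSeq start but inside these gene coordinates. It had 8.03 to 22.1 CPM at 24 h (median 15.9) and 91.6 to 105 CPM at 0 h (median 95.2). Its highest 24 h library was thus well below its lowest 0 h library. The average log2 change was -2.73 ± 0.14 (adjusted p = 1.95e-06 by edgeR). Within lines its log2 change lay between -2.38 ± 0.24 (iFoxA1) and -3.43 ± 0.32 (iFoxP3), each past the threshold.

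Cish (ENSMUSG00000032578.7, chr9:107296026-107302784, plus strand) encodes another SOCS family inhibitor, best known as a feedback gene of STAT5, and also has the STAT core in its printed stretch. It was low, at 1.51 to 4.02 CPM at 24 h (median 2.59) and 1.38 to 3.35 CPM at 0 h (median 2.08). None of the libraries at 24 h lay below all 0 h libraries, and 5 lay above all of them. The average log2 change was 0.33 ± 0.16 (adjusted p = 0.127 by edgeR). Only in iFoxC1 did Cish pass within a line, at 3.57 and 3.72 CPM at 24 h against 1.38 CPM in the single 0 h library (log2 change 1.4 ± 0.38, adjusted p = 0.0498 by edgeR), a call kept in 7 of 26 alternative fits. Without that 0 h library the average over the 4 other lines was 0.06, and without the iFoxL2 0 h library it was 0.57 (adjusted p = 0.0308).

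Bcl3 (ENSMUSG00000053175.17, chr7:19808462-19822770, minus strand) encodes an atypical IκB family protein, a STAT3 target in ES cells. At 24 h it had 1.54, 1.83 and 2.37 CPM in iFoxA1, 3.22 and 3.60 in iFoxC1, 3.81 and 3.57 in iFoxL2, 5.34 and 6.82 in iFoxG1, and 6.29 and 9.00 CPM in iFoxP3. At 0 h it had 24.5 to 33.1 CPM in the 6 libraries (median 29.0). Its average log2 change was -2.78 ± 0.12 (adjusted p = 1.05e-06 by edgeR), and it was called lower in each line, although not in iFoxP3 with limma on TPM.

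Pim1 (ENSMUSG00000024014.8, chr17:29490753-29496112, plus strand) encodes a serine/threonine kinase that STAT3 and STAT5 switch on. It had 40.8 to 148 CPM at 24 h (median 85.1) and 54.5 to 117 CPM at 0 h (median 59.9), with overlap. The average log2 change was 0.41 ± 0.17 (adjusted p = 0.0871 by edgeR). The 117 CPM belonged to the single iFoxC1 library at 0 h. Without it the average of the 4 other lines was 0.66 and passed (adjusted p = 0.0267), as it did without iFoxA1 24 h replicate 3 (0.33, adjusted p = 0.0266).

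Osm (ENSMUSG00000058755.3, chr11:4236420-4241026, plus strand) encodes oncostatin M, an interleukin-6 family cytokine. It had 0 to 1.00 CPM at 24 h (median 0.198) and 4.99 to 6.99 CPM at 0 h (median 5.87). The groups did not overlap. The average log2 change was -4.54 ± 0.57 (adjusted p = 0.000305 by edgeR), -5.88 without iFoxL2 24 h replicate 2 and -2.5 with limma on log2(TPM + 0.5). In iFoxL2 replicate 1 Osm had 0 counts, at least 39.0-fold lower than in the line's 0 h library against a floor of 3 counts in that library. The genes for this ligand and for Socs3, Bcl3 and Stat3 were thus the members with lower RNA at 24 h in every library.

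**Figure D3:**
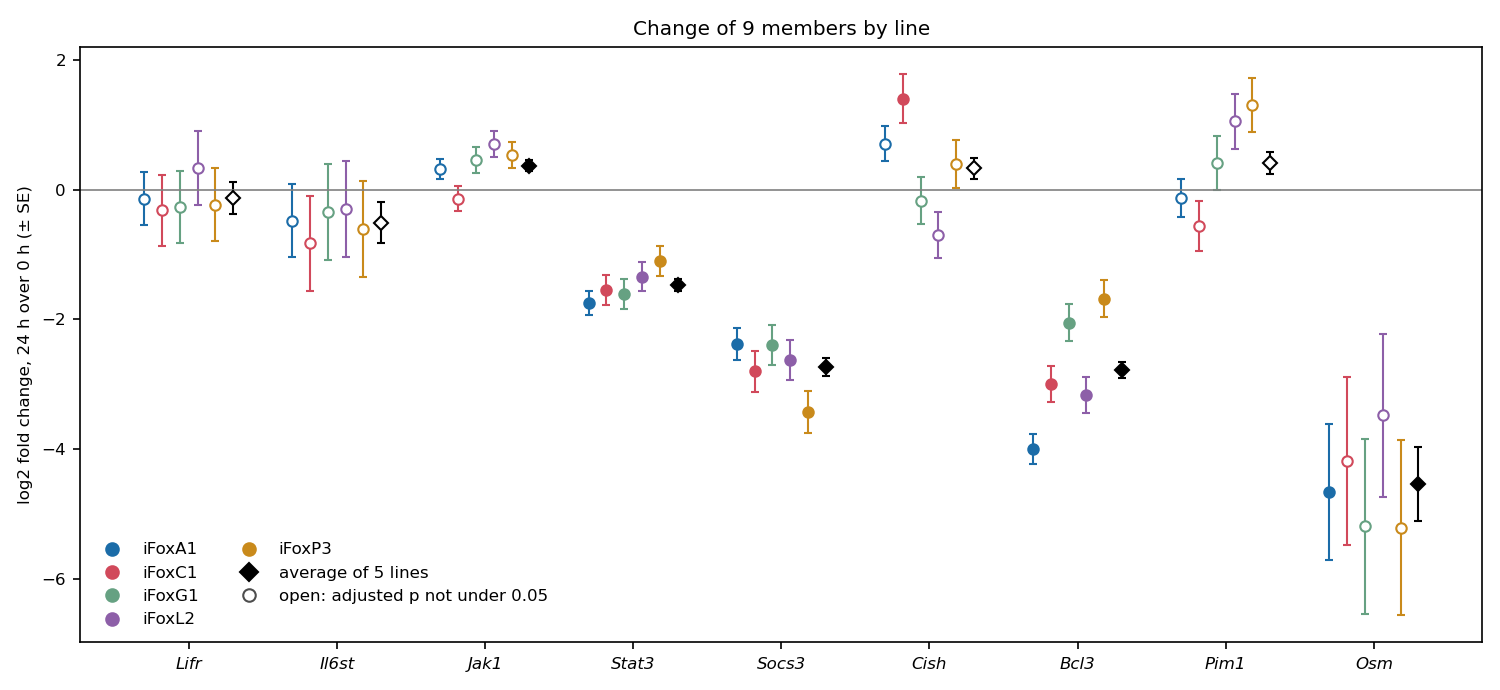
The y axis gives the log2 fold change of 24 h over 0 h with its SE for 9 genes (x axis), per line (circles) and averaged over the 5 lines (diamonds), with open symbols where the adjusted p was not under 0.05. Stat3, Socs3 and Bcl3 are filled and below 0 in all 5 lines, whereas Pim1 runs from -0.56 in iFoxC1 to 1.30 in iFoxP3.

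Within single lines, called members numbered 4 of 9 in iFoxA1 (Stat3, Socs3, Bcl3 and Osm, where 10.8% of all genes were called), 4 in iFoxC1 (Stat3, Socs3, Bcl3 and Cish, 9.73% of all genes), and 3 each in iFoxG1 (5.64%), iFoxL2 (4.23%) and iFoxP3 (6.05%). In these last lines the 3 were Stat3, Socs3 and Bcl3. Osm had log2 changes between -3.48 and -5.21 in the 4 lines where it did not pass, with adjusted p between 0.0541 and 0.159 by edgeR. Leaving out iFoxP3 24 h replicate 1 left only Socs3 called in iFoxP3, and Stat3 also lost its call there without iFoxP3 24 h replicate 2 or either iFoxA1 0 h library. In iFoxA1, Osm lost its call without 24 h replicate 1 or 2 or either 0 h library. Leaving out iFoxA1 24 h replicate 3 gave 5 calls in iFoxP3 and 5 in iFoxL2.

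An F test over the lines asked whether the 5 changes differed from each other. It called 0 of the 9 members by edgeR (1.00% of all genes), although 3 had an unadjusted p under 0.05, and DESeq2 called 2. Bcl3 came closest (unadjusted p = 0.00086, adjusted p = 0.0633), with log2 changes of -4.0 ± 0.23 in iFoxA1, -3.16 ± 0.28 in iFoxL2, -3.00 ± 0.28 in iFoxC1, -2.05 ± 0.28 in iFoxG1 and -1.68 ± 0.28 in iFoxP3. The 2 called with DESeq2 were Bcl3 and Pim1, which also passed with the library set as a term (adjusted p = 0.0105 for Bcl3 and 0.0323 for Pim1, by edgeR). For Cish (adjusted p = 0.221) and Pim1 (adjusted p = 0.303) the lines went both ways.

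Pim1 had 148 and 121 CPM at 24 h in iFoxP3 (replicates 2 and 1), against 54.5 CPM at 0 h, and 140 and 98.5 CPM in iFoxL2, against 57.6 CPM at 0 h. In iFoxG1 it had 85.9 and 71.2 CPM at 24 h, against 58.9 CPM at 0 h. In iFoxC1 it had 85.1 and 73.4 CPM at 24 h, against 117 CPM at 0 h. In iFoxA1 it had 44.5, 40.8 and 84.6 CPM at 24 h, against 61.0 and 63.5 CPM at 0 h, so its 24 h libraries stood on both sides of its 0 h libraries. In the 12 libraries outside the deeper set the log2 changes were -0.72 in iFoxC1, -0.53 in iFoxA1, 0.28 in iFoxG1, 0.80 in iFoxL2 and 1.15 in iFoxP3, and there the F test passed (adjusted p = 1.34e-05 by edgeR).

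Among the lines at 24 h Bcl3 differed (adjusted p = 0.0026 by edgeR, 13.1% of all genes called) and the other 8 tested members did not pass. The order for Bcl3 was iFoxA1, iFoxC1 and iFoxL2, iFoxG1 and iFoxP3 from low to high. The ranges of iFoxC1 and iFoxL2 overlapped, as did those of iFoxG1 and iFoxP3. Cish (adjusted p = 0.0568), Pim1 (adjusted p = 0.077) and Socs3 (adjusted p = 0.134) missed the threshold. With the library set as a term all 3 passed (adjusted p = 0.0355 for Cish, 0.0043 for Pim1 and 0.00587 for Socs3, by edgeR), DESeq2 called all 3, and limma on TPM called Pim1 and Socs3. The iFoxP3 libraries had 8.03 and 9.80 CPM of Socs3 at 24 h, below the 11.4 to 22.1 CPM of the 4 other lines. At 0 h edgeR called 0 of 9 (0.495% of all genes), with Jak1 at an unadjusted p of 0.0111 and DESeq2 calling Jak1 alone. Jak1 had 57.9 CPM at 0 h in iFoxC1, 48.7 and 48.5 in iFoxA1, and 31.2 to 35.9 CPM in the other 3 lines.

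At 24 h the deeper libraries were compared with the others of the same lines. Stat3 was higher in the deeper libraries by 0.27 ± 0.08 on the log2 scale (adjusted p = 0.0357), Socs3 by 0.42 ± 0.09 (adjusted p = 0.0101) and Pim1 by 0.49 ± 0.11 (adjusted p = 0.0126), all by edgeR. These were 3 of 9 members, all higher, where 26.3% of all genes were called and 12.7% were higher. The fit used estimated counts, and in TPM the 24 h means ran the other way for Stat3 and Socs3. Stat3 averaged 8.58 TPM in the deeper libraries and 10.3 TPM in the others, and Socs3 7.26 and 7.71 TPM. Pim1 kept its direction, at 51.5 and 43.1 TPM. Lifr (0.42, adjusted p = 0.24) and Il6st (0.68, adjusted p = 0.135) did not pass, and without iFoxA1 replicate 3 and iFoxL2 replicate 2 their differences turned to -0.15 (adjusted p = 0.016) and -0.13 (adjusted p = 0.0863). The differences of Stat3 and Socs3 are small beside their changes from 0 h. That of Pim1 is larger than its average change of 0.41. With transcripts of a complete coding sequence only, Pim1 differed by 0.27 and lost its call (adjusted p = 0.113), while Stat3 (0.25) and Socs3 (0.36) kept theirs. Stat3 lost its call when any 1 library of iFoxA1, or any 1 library of iFoxG1 or iFoxL2 at 24 h, was left out.

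At the level of transcripts, 37 of the members' 69 annotated transcripts reached 10% of their gene's TPM in some library, and 26 of the 37 passed the filter. In the average change 6 of the 26 were called, 4 lower and 2 higher, where 7.27% of 60676 transcripts were called, 4.77% higher and 2.49% lower. Those lower were Socs3-201, Bcl3-201, Osm-201 and Stat3-203, the main coding transcripts of the falling genes, and those higher were Jak1-201 and Cish-201. Socs3-201 changed by -2.75 and Stat3-203 by -1.38 on the log2 scale. Cish-201 was listed at 0 TPM in the single 0 h libraries of iFoxC1 and iFoxP3, so no fold is given for it. In those 2 libraries the coding transcript Cish-204 was listed at 0.261 and 0.397 TPM. Cish-201 was at 0.360 to 1.41 TPM at 24 h and 0 to 0.929 TPM at 0 h, and in iFoxL2 it was at 0.589 and 0.360 TPM at 24 h, against 0.929 TPM at 0 h.

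Mice make a soluble LIF receptor from shorter transcripts of Lifr, and the annotation holds coding sequences of 719 and 1092 codons. Transcripts with 1092 codons, the full receptor, summed to 3.75 to 12.6 TPM at 24 h (median 7.93) and 5.48 to 10.9 TPM at 0 h (median 8.59). Transcripts with 719 codons summed to 0.876 to 1.84 TPM at 24 h (median 1.52) and 1.44 to 2.46 TPM at 0 h (median 2.37). The shorter form made up 8.16 to 20.8% of Lifr TPM at 24 h and 11.2 to 20.5% at 0 h, so the shares of the 2 times covered almost the same range.

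For Stat3, the transcript of 770 codons carried 60.4 to 97.4% of the gene's TPM at 24 h and 65.2 to 79.9% at 0 h. Stat3-201, 1 codon shorter, was at 0 to 1.74 TPM at 24 h and 0.796 to 5.69 TPM at 0 h, and its change did not pass (adjusted p = 0.213 by edgeR). Only 25 stretches of 31 bases set Stat3-201 apart from the gene's other transcripts, which limits how well its share can be known. The transcript of 722 codons, the length of the STAT3 beta form that lacks part of the transactivation domain, reached no more than 0.862% of the gene's TPM at 24 h and 0.662% at 0 h.

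Short transcripts of Il6st and Pim1 took up more of the TPM in the deeper libraries. Il6st-205, a fragment of 322 bases with an incomplete coding sequence, was at 6.79 to 13.9 TPM in the 5 deeper libraries, against 0 to 5.1 TPM in the 6 other libraries at 24 h. It reached 55.6% of Il6st TPM in iFoxP3 24 h replicate 2, from 27.9 estimated counts beside 1218.8 of Il6st-201. Its highest count in any library was 39.9, so its TPM rests on few reads scaled to a short length. Its set difference did not pass (adjusted p = 0.199 by edgeR). The coding transcript Il6st-201 was at 4.83 to 13.7 TPM at 24 h and 9.49 to 12.6 TPM at 0 h. Its highest values at 24 h were 13.7 TPM in iFoxA1 replicate 3 and 13.2 TPM in iFoxL2 replicate 2, against 12.8 TPM or less in the 9 others, so this coding transcript was also highest in those libraries. Only 21 stretches of 31 bases set Il6st-201 apart from the gene's other transcripts, which limits how well its share can be known.

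Pim1-204, annotated as a retained intron, was at 2.17 to 14.7 TPM in the 5 deeper libraries and at 0 in the 12 others (adjusted p = 0.0253 by edgeR between the sets at 24 h). In that comparison 5 of the 26 transcripts were called, 4 higher and 1 lower, where 17.5% of all transcripts were called, 8.91% higher and 8.58% lower. By this test, which used estimated counts, the others higher in the deeper libraries were Pim1-206 (adjusted p = 0.0268), Socs3-201 (adjusted p = 0.0199) and the non-coding Socs3-202 (adjusted p = 0.0111). In TPM Socs3-201 went the other way, with a mean of 5.51 TPM in the deeper libraries and 7.11 TPM in the 6 others at 24 h. Il6st-208 was lower (adjusted p = 0.0377), at 0 to 0.229 TPM in the deeper libraries against 0.256 to 1.04 TPM in the 6 others at 24 h. Only 25 stretches of 31 bases set Il6st-208 apart from the gene's other transcripts. The sequence below shows how little separates Pim1-204 from the coding transcript Pim1-201 at its start (chr17:29491305-29491344, plus strand, mm10, GENCODE M21). The 20 bases in capitals precede the exon that both share, and 19 stretches of 31 bases are found in Pim1-204 and in no other Pim1 transcript. The coding Pim1-201 was at 20.3 to 65.0 TPM at 24 h and 19.6 to 57.8 TPM at 0 h. Pim1-206 was at 0 to 15.3 TPM in the deeper libraries, with the 0 in iFoxL2 replicate 2. Pim1-207 reached more than Pim1-204, at 0.624 to 18.5 TPM in the deeper libraries and 0 to 2.83 TPM in the 6 others at 24 h. Its set difference did not pass (adjusted p = 0.106 by edgeR).
Pim1-204: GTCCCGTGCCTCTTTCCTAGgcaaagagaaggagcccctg

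**Figure D4:**
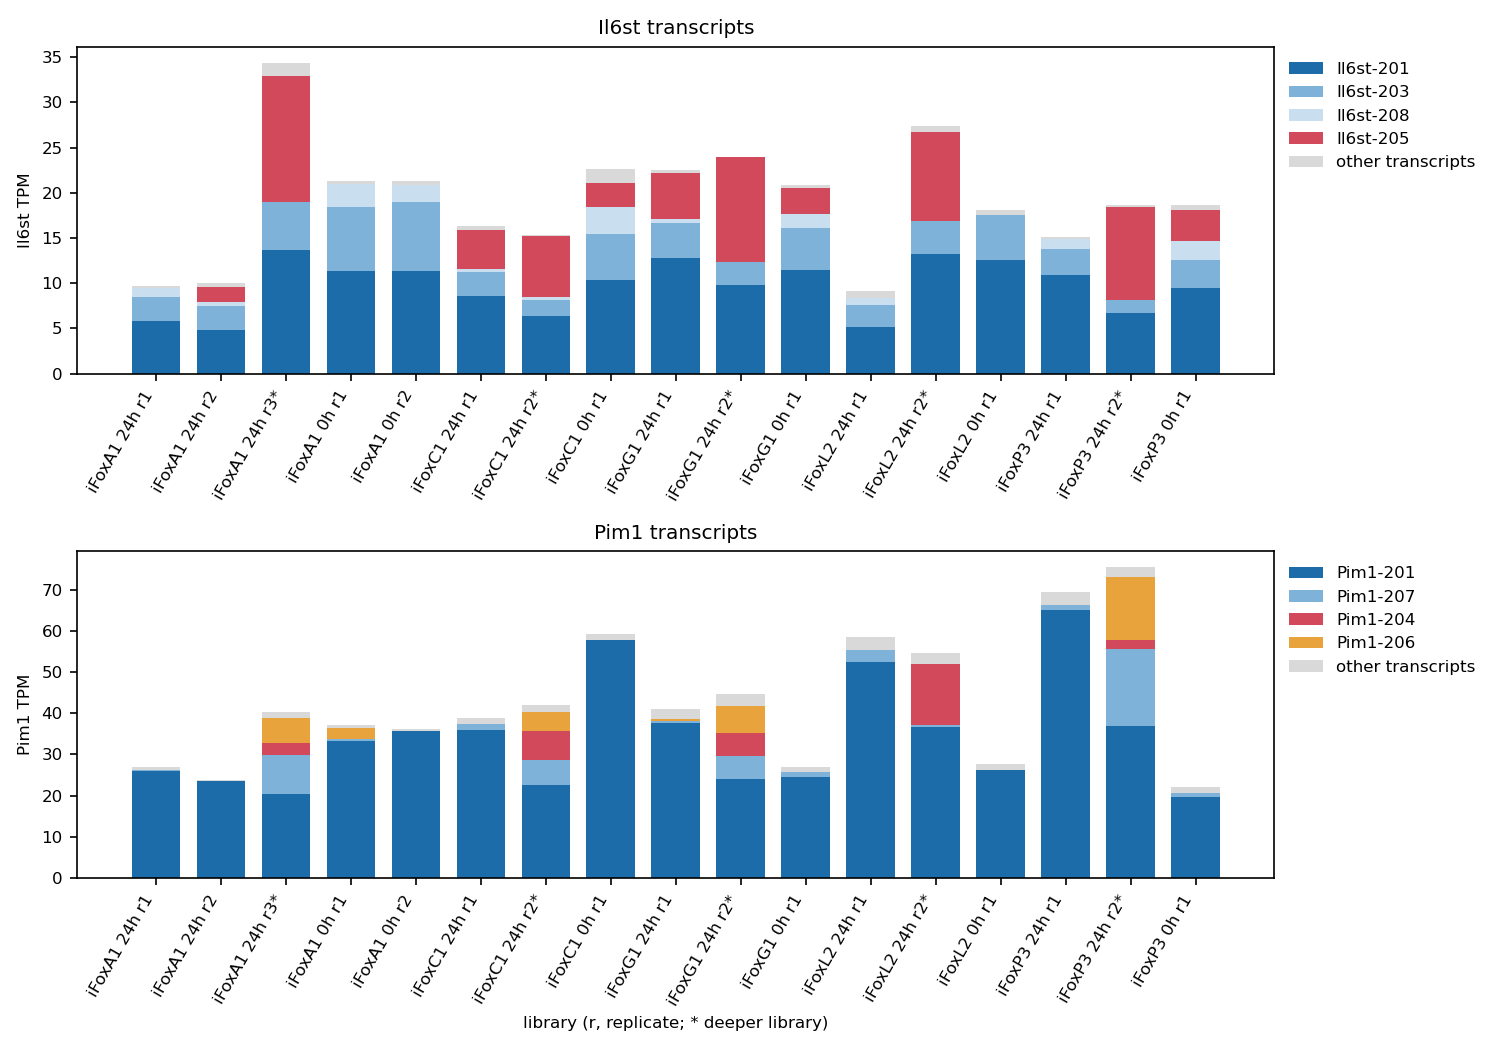
Stacked bars give TPM per library (x axis, 24 h left of 0 h within each line, deeper libraries starred) for transcripts of Il6st (top) and Pim1 (bottom). In deeper libraries Il6st-205 (red) reaches 13.9 TPM, Pim1-204 (red) 14.7 TPM and Pim1-207 18.5 TPM, and Pim1-204 is at 0 in all others.

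Other genes of the pathway were read from 4 lists. Of 12 other gp130 family ligands and receptors, 11 were tested (Il6 was not), and 3 rose and 1 fell on average. These counts and those of the lists below stand beside 21.7% of all genes called higher and 16.1% called lower. Among those that rose were Clcf1, a cytokine of the family, with a log2 change of 1.64 ± 0.44 (adjusted p = 0.0161 by edgeR), and Cntfr, the binding chain of the ciliary neurotrophic factor receptor, with one of 1.53 ± 0.28 (adjusted p = 0.00241). Clcf1 stayed at 1.19 CPM or less in every library. Il6ra, the interleukin-6 receptor chain, was at 1.25 to 5.41 CPM at 24 h and 4.07 to 9.67 CPM at 0 h (-1.18 ± 0.16).

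Among 14 other kinases, STATs and adaptors, 4 rose and 2 fell, and 4 rose and 7 fell in the 12 libraries outside the deeper set. Gab1 (0.59 ± 0.06), Sos1 (0.51 ± 0.05) and Ptpn11 (0.29 ± 0.08), which link gp130 to the Ras and MAP kinase branch, and the kinase Tyk2 (0.53 ± 0.10) were higher at 24 h. Irf9, a DNA-binding factor of interferon signalling, was at 4.74 to 9.22 CPM at 24 h and 13.4 to 21.4 CPM at 0 h (-1.43 ± 0.10). The kinase Jak3 also fell (-0.78 ± 0.20). Of the STAT genes on this list none passed on average.

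Of 13 other inhibitors, 4 rose and 0 fell, and 5 rose and 4 fell in the 12 libraries outside the deeper set. The 4 were Socs1 (0.92 ± 0.18), Socs5 (0.60 ± 0.20), Cbl (0.46 ± 0.08), a ubiquitin ligase for activated receptors, and Socs2 (0.40 ± 0.08). Socs1 had 1.39 to 7.37 CPM at 24 h and 1.34 to 2.03 CPM at 0 h. The 24 h values of iFoxA1, 1.39 to 1.49 CPM, were below its 0 h values of 1.96 and 2.03 CPM, and its change there did not pass (-0.47 ± 0.31, adjusted p = 0.398 by edgeR). Socs5 kept its call in 11 of 28 alternative fits.

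Among 17 other genes reported as STAT3 responsive in ES cells or other cells, 5 rose and 5 fell. Pim2, the sister kinase of Pim1, was at 39.7 to 169 CPM at 24 h and 8.86 to 14.2 CPM at 0 h (3.02 ± 0.24, adjusted p = 2.46e-05 by edgeR). Myc, a growth-promoting transcription factor, changed by 2.05 ± 0.14, and by 1.15 without the iFoxC1 0 h library, where it had 1.66 CPM against 24.4 to 30.1 CPM in the 5 other 0 h libraries. Zfp36, which destabilises mRNAs (1.44 ± 0.27), and Spry2, an inhibitor of growth factor signalling (0.73 ± 0.07, and 0.44 without the iFoxC1 0 h library), also rose. Icam1, an adhesion molecule (-0.99 ± 0.10), and the kinase Sgk1 (-0.80 ± 0.09) fell. The median log2 changes were 0.16 for the ligands and receptors, -0.08 for the kinases, 0.15 for the inhibitors and -0.02 for the responsive genes, against 0.04 for all genes. In the 12 libraries outside the deeper set 4 ligands and receptors were higher and 2 lower, and 5 responsive genes were higher and 8 lower.

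**Figure D5:**
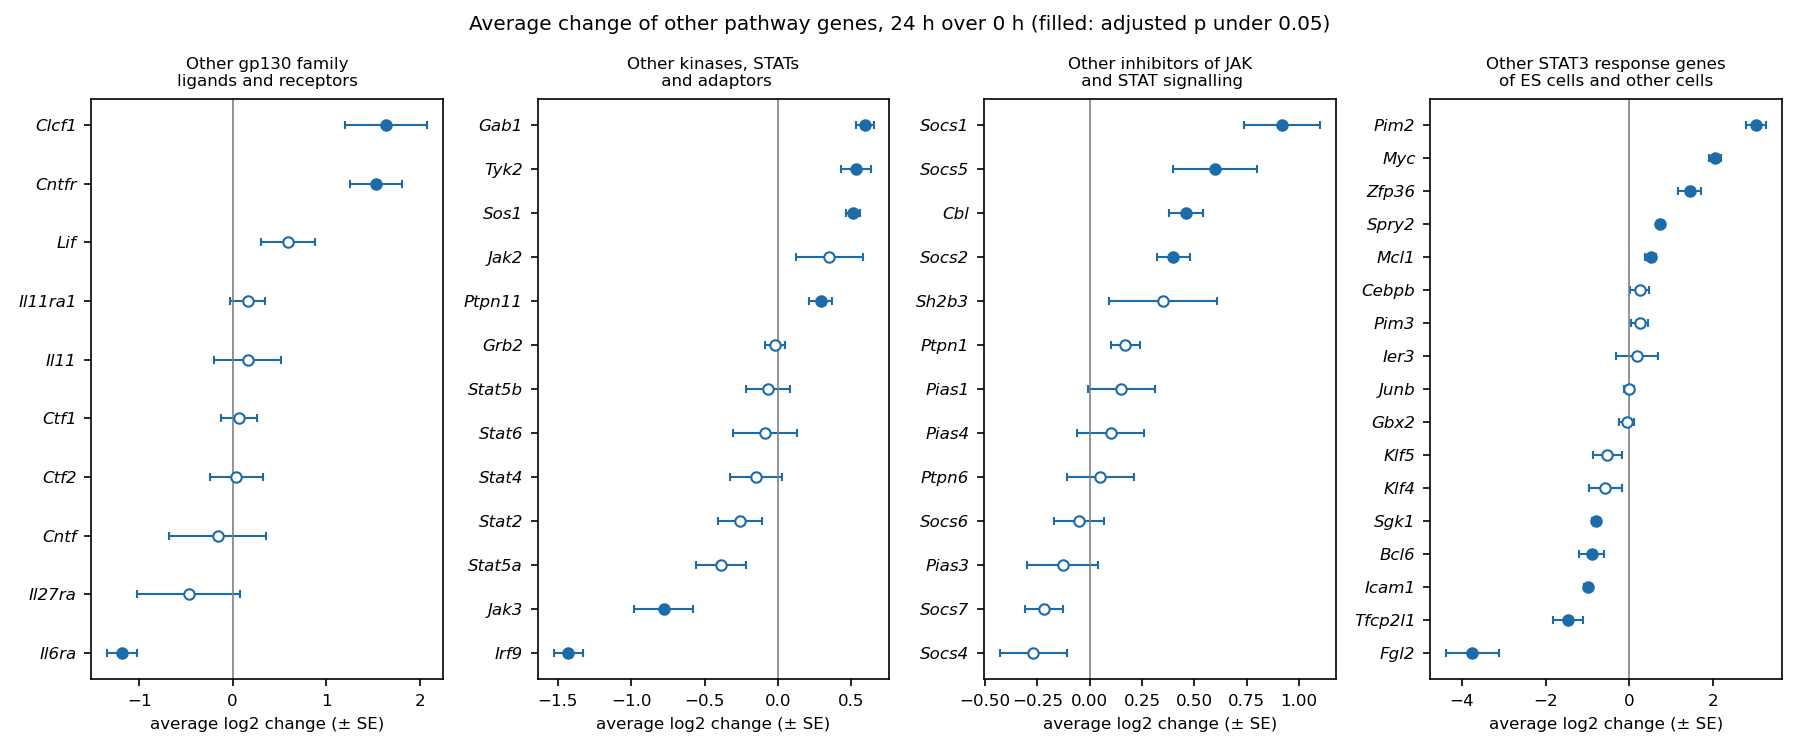
Dots give the average log2 change of 24 h over 0 h with its SE (x axis) for tested genes of the 4 lists (y axis), filled where the adjusted p was under 0.05. Pim2 (3.02) lies far right in its panel, and each of the 4 filled inhibitors lies right of 0.

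Over the 17 libraries, the named protein-coding genes whose log2 CPM followed Socs3 most closely were Mras (Pearson r = 0.982), Emc2 (0.965) and Mitf (0.963), out of 10243 candidates that averaged 5 CPM or more in the group where they were higher. For Lifr they were Trak1 (0.932), Cdk19 (0.918) and Itga9 (0.916). The libraries share lines and fall into the 2 times, so these values are a description. For Osmr no such list was made because it did not pass the filter.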

How the data were processed

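Strand-specific libraries of polyadenylated RNA (from 1 µg of total RNA, per the labels' protocols) were analysed. Salmon 1.4.0, DESeq2 1.30.1 and the build mm10 are named, without roles, per the submitters' processing notes, and column names end like Salmon's output, per the file headers. The authors deposited 2 tables per transcript, estimated counts that are not normalised and TPM, which is scaled to transcript length and library total. Which transcript annotation they used is not stated in what was read here.

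Of 137271 transcripts, 137225 were matched by identifier to GENCODE M21, 136349 with the same version. The 46 others were dropped, and made up 0.0133% or less of each library. Estimated counts were summed per gene symbol, rounded, filtered (filterByExpr by group) and scaled (TMM), and tested by quasi-likelihood in edgeR 4.0.16 under R 4.3.3, with 10 groups and 7 residual degrees of freedom. A line with 1 library at 0 h is assumed to vary like the others. Log2 changes carry an SE derived from the F statistic. CPM uses the TMM-adjusted total, and log2 CPM a prior count of 2. A second fit used 60676 transcripts. Adjusted p-values are Benjamini-Hochberg over all features tested, with a threshold of 0.05. The gene-level fit of the average change was tested on simulated data that held no difference between library sets. The other comparisons and the transcript fit were not tested in this way. Replicates are not stated to be separate cultures, so the p-values reflect library-to-library spread alone, which may be technical, and floors of 3 counts cover counting error only. Replicate pairs differed by more than counting noise. Chi-square per degree of freedom was 2.79 at 0 h and 3.31 at 24 h in the iFoxA1 pairs outside the deeper set. In pairs of a deeper and another library it was 78.8 to 206. In every line but iFoxA1 the 24 h pair was of that kind, so the spread in the fit includes the difference between library sets.

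The 10 members, the pathway lists, the tests and the alternatives were chosen with earlier results of these data known. Text names all members, up to 6 called genes per list with the smallest adjusted p in the average change, the 3 genes most like Socs3 or Lifr, and transcripts with at least 10% of their gene's TPM. Alternatives covered scaling, DESeq2 1.42.0, limma 3.58.1 on log2(TPM + 0.5) and log2(TPM + 0.1), no filter, transcript length, the library set, the replicate block and leaving libraries out. The average over the 4 other lines when a single 0 h library is left out, and the use of complete coding sequences only, were chosen after seeing the data. Of the genes on the pathway lists, 2 are counted but not reported singly here. Promoter sequences are from RefSeq, transcripts from GENCODE M21.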

Additional observations from a re-analysis of the deposited data

Results flagged for a closer look

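For 3 members every 24 h library lay above the 0 h libraries in some lines and below them in others, but the test of the difference among the 5 changes did not pass (edgeR). Cish was higher at 24 h in iFoxA1, iFoxC1 and iFoxP3 and lower in iFoxL2 (adjusted p = 0.221). Pim1 was higher in iFoxG1, iFoxL2 and iFoxP3 and lower in iFoxC1 (adjusted p = 0.303), and its difference passed with the library set as a term (adjusted p = 0.0323), with the replicate block and with DESeq2. Jak1 was higher in iFoxA1, iFoxG1, iFoxL2 and iFoxP3 and lower in iFoxC1 (adjusted p = 0.459). In iFoxC1 all 3 rest on 1 library at 0 h.

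For 3 genes of the pathway lists the 5 changes differed by that test. Stat4 (adjusted p = 0.019) had 37.4, 35.8 and 20.5 CPM at 24 h in iFoxA1, against 4.83 and 4.50 CPM at 0 h, and 2.58 to 7.03 CPM at 24 h in the 4 other lines. Its log2 change was 2.74 ± 0.34 in iFoxA1 and between -0.21 and -1.40 elsewhere. Myc (adjusted p = 0.00781) had 70.1 and 98.8 CPM at 24 h in iFoxC1, against 1.66 CPM at 0 h, a change of 5.67 ± 0.40, where the other lines had 0.64 to 1.79. Spry2 (adjusted p = 0.0111) had 86.8 and 85.1 CPM at 24 h in iFoxC1, against 23.4 CPM at 0 h, a change of 1.88 ± 0.16, where the other lines had -0.11 to 1.07. Myc (adjusted p = 0.0152) and Spry2 (adjusted p = 0.0192) also differed among lines at 0 h, where iFoxC1 was the lowest. No reason for these differences was tested.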

How the results depend on the processing

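The average changes of Stat3, Socs3, Bcl3 and Osm kept their direction and call in each of the 11 alternatives and 17 leave-one-out fits, with Stat3 between -1.60 and -1.43, Socs3 between -2.94 and -2.56, Bcl3 between -3.05 and -2.60 and Osm between -6.25 and -2.5. Jak1 lost its call with limma on TPM. No member's average change turned its sign. The iFoxL2 change of Lifr was 0.33 in all libraries and -0.74 in the 12 outside the deeper set (adjusted p = 7.75e-05). Over leave-one-out fits the count of members called ran from 5 to 7 on average, 3 to 5 in iFoxL2, 1 to 5 in iFoxP3, 0 to 2 for the difference among changes and 1 to 3 among lines at 24 h. In the 12 libraries outside the deeper set it was 8 on average, 9 each for iFoxA1 and iFoxC1, 8 each for iFoxG1 and iFoxL2, 7 for iFoxP3, 8 for the difference among changes, 8 among lines at 24 h and 6 at 0 h, with 12237 genes called on average (7490 in all libraries) and 10 transcripts. Without iFoxA1 24 h replicate 3 and iFoxL2 24 h replicate 2 it was 9 on average, 7 each for iFoxA1 and iFoxP3, 8 each for iFoxC1 and iFoxL2, 5 for iFoxG1, 5 for the difference among changes, 8 among lines at 24 h, 3 at 0 h and 5 between library sets. With the library set as a term it was 5 in iFoxL2, 5 in iFoxP3, 2 for the difference among changes and 4 among lines at 24 h. With DESeq2 it was 5 in iFoxP3, 2 for the difference, 4 at 24 h and 1 at 0 h. Limma on TPM gave 3 among lines at 24 h with either pseudocount, and 4516 (0.5) or 4602 (0.1) genes on average. Complete coding sequences gave 3 at 24 h. The replicate block, for numbers that mark no stated pairing and could be checked only in iFoxA1 (r = 0.039 between the deviations of same-numbered libraries over 2 pairs), gave 5 in iFoxP3, 2 for the difference, 3 at 24 h and 0 between library sets, and Il6st at -0.74 (adjusted p = 0.0409) on average. Cish passed without the 2 libraries named above together (0.39, adjusted p = 0.0402) and Il6st without iFoxA1 24 h replicate 3 (-0.68, adjusted p = 0.0299). The causes were not tested. At 0 h 4 lines have 1 library, so a change within a line is less certain than the average, and the counts of Osmr, Osm at 24 h and Cish limit what can be said of them.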

Other observations

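The gene for LIF itself, Lif, was at 3.10 to 14.2 CPM at 24 h (median 7.04) and 4.27 to 6.24 CPM at 0 h (median 4.95). Its average log2 change of 0.59 ± 0.29 did not pass (adjusted p = 0.13 by edgeR). The lowest value at 24 h, 3.10 CPM, was in iFoxL2 replicate 2, where Lifr was at its highest (115 CPM), and the highest, 14.2 CPM, in iFoxL2 replicate 1, where Lifr was at its lowest (35.3 CPM). Both libraries are of the same line. Whether Lif and Lifr ran opposite over the 11 libraries at 24 h was not tested.

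Tfcp2l1, a transcription factor that LIF and STAT3 maintain in ES cells, was chosen here after its values were seen. It fell on average, with a log2 change of -1.46 ± 0.36 (adjusted p = 0.0106 by edgeR). At 24 h it had 311 CPM in iFoxA1 replicate 3 and 177 CPM in iFoxL2 replicate 2, against 36.8 to 99.2 CPM in the 9 other libraries at 24 h and 198 to 408 CPM at 0 h. It was thus highest at 24 h in the same libraries as Lifr and Il6st. Fgl2, likewise chosen after its values were seen, was called lower (adjusted p = 0.00454 by edgeR) at 0 to 0.403 CPM at 24 h and 0.308 to 1.23 CPM at 0 h, and no fold is given because all libraries of iFoxA1 and iFoxC1 at 24 h had 0 counts.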
